A study of Homo sapiens with 12 samples.

Results

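Long intergenic noncoding RNAs (lincRNAs) whose transcript clusters were bright enough to be read on the arrays were examined in HT-29 and SW480 cells kept with or without folic acid (FA). A transcript cluster is the set of probes that the array uses for 1 locus. A locus was taken when its cluster carried a single gene symbol that starts with LINC and a digit, and when the brightest such cluster averaged at least 5 on the log2 scale over all 12 arrays. This gave 89 of 542 LINC loci, out of 67528 clusters on the array. The members were thus chosen by their mean level over the same arrays that are described below. Just above it lay LINC00663 (5.018), LINC02318 (5.018) and LINC01512 (5.008), and just below it LINC03040 (4.997), LINC01554 (4.997) and LINC02582 (4.993).

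HT-29 and SW480 are established human colon adenocarcinoma lines, grown in RPMI medium with fetal bovine serum and then moved to RPMI without FA. The 4 groups of 3 arrays each were HT-29 cells given 10000 ng/mL FA, HT-29 cells kept without FA, SW480 cells given 10000 ng/mL FA and SW480 cells kept without FA, all harvested after 72 hours. FA was dissolved in NaOH and no array of solvent alone was analysed here, so the effect of FA and that of its solvent cannot be told apart. Cells were seeded in triplicate and the replicates are labelled biological. Nothing further says that they came from separate cultures, so p-values refer to the spread among these arrays only, which may be technical. Each line is a single cell line, and a difference between them is a difference between these 2 lines.

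LincRNAs are transcribed by RNA polymerase II from stretches between protein coding genes, are often spliced and polyadenylated, and carry no long open reading frame. Some act at the locus that makes them, some bind proteins or microRNAs elsewhere in the nucleus or cytoplasm, and a few have turned out to encode short peptides. Folate carries the one-carbon units used to make thymidylate, purines and S-adenosylmethionine, the methyl donor for DNA, which is why a folate supply can be asked to bear on transcription. The comparisons ask how these RNAs differ between the lines, and whether a high dose of FA shifts them in either line.

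The name LINC is that of the array's annotation and has aged. In the current RefSeq annotation (GRCh38.p14) 83 of the 89 loci are long noncoding RNAs, 3 are transcribed pseudogenes and 3 lie in protein coding genes. The 3 pseudogenes are LINC00266-1, LINC00266-3 and LINC00266-4P, all copies of the septin gene SEPTIN14. The 3 coding entries are LINC00341, now part of SYNE3 (nesprin-3, which ties the nuclear envelope to intermediate filaments), LINC00444, now part of SUCLA2 (a subunit of mitochondrial succinate-CoA ligase), and LINC00083, now CLEC20A. Among the renamed RNAs LINC00152 is now CYTOR and LINC00969 is MIR570HG.

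Several of the brightest loci are near-identical copies in different chromosomes. LINC01002, LINC01001 and LINC01061 are shown because they move together across the arrays, and capitals mark the run of 66 bases that all 3 windows hold without a mismatch. Each window has 300 bases, from 250 before the annotated start to 50 after it, read 5′ to 3′ on the strand of the gene from RefSeq on GRCh38.p14: LINC01002 at chr19:202160-202459, LINC01001 at chr11:131804-132103 and LINC01061 at chr4:119410611-119410910, each on the minus strand.
LINC01002: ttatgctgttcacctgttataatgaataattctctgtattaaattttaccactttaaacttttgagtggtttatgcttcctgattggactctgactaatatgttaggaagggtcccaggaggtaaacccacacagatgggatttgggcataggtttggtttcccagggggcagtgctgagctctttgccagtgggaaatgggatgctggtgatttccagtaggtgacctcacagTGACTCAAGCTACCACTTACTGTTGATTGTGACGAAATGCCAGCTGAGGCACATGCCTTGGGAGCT
LINC01001: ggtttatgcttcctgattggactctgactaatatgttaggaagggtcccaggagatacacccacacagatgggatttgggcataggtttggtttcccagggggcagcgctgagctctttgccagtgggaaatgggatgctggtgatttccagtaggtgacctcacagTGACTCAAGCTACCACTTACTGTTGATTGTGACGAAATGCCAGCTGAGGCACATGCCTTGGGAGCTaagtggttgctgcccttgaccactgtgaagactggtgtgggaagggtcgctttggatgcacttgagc
LINC01061: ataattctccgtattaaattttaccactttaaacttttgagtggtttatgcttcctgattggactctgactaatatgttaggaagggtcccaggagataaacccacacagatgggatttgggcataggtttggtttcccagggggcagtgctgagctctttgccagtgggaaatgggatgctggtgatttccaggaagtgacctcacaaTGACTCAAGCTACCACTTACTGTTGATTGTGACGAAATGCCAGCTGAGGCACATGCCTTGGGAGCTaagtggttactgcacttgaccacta
The run is held by 5 of all 35116 promoter windows (0.0142%), the other 2 belonging to loci without a gene name. The longest run without a mismatch was 126 bases between LINC01002 and LINC01001, 97 bases between LINC01002 and LINC01061, and 74 bases between LINC01001 and LINC01061. A second set on chromosome 1 shares runs in the same way, with 109 bases between LINC00875 and LINC00623 and 82 bases between LINC00875 and LINC00869. Clusters of such copies may read each other's transcripts, so their values are not independent measurements of separate genes.

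Further windows are shown with their CG dinucleotides, the sites of DNA methylation, in capitals. LINC00173 (chr12:116533172-116533471, plus strand) and LINC00152 (chr2:87455177-87455476, plus strand) were lower in HT-29 than in SW480, and LINC00920 (chr16:66408274-66408573, plus strand) was higher.
LINC00173: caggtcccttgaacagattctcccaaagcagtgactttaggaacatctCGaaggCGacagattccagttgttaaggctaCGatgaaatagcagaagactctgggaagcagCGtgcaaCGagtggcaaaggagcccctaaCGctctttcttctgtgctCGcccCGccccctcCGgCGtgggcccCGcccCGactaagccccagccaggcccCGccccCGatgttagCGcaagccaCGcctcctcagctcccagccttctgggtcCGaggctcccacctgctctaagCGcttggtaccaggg
LINC00152: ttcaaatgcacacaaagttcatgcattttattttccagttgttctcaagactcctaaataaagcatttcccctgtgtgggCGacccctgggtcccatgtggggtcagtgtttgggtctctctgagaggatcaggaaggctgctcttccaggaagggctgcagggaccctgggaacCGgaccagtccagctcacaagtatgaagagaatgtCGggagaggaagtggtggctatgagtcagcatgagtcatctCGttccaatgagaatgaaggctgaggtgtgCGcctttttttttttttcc
LINC00920: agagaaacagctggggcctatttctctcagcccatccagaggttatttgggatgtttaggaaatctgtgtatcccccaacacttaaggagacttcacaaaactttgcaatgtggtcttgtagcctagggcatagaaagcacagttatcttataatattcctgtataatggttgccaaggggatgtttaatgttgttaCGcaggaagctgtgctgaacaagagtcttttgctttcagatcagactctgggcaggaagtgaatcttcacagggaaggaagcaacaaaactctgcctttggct
The window of LINC00173 held 18 CG dinucleotides, a number that 44.5% of all promoter windows reach. That of LINC00152 held 5 (reached by 70.4%) and that of LINC00920 held 1 (reached by 96.0%). A window was found for 61 of the 89 loci. The median number of CG was 15 over the 24 loci lower in HT-29 in both line comparisons (range 1 to 48), 3 over the 8 loci higher in HT-29 in both (range 1 to 32), 9 over the other 29 and 14 over all windows. Among the 8 higher loci the copies LINC01002, LINC01001 and LINC01061 held 1, 3 and 2. LINC00920 held 1, LINC00415 held 3, LINC00893 held 14, LINC00894 held 31 and LINC00685 held 32. The copies share sequence and are counted separately, so the median of 3 does not set the higher loci apart. The ranges overlap, and no methylation was measured on these arrays.

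The arrays gave log2 values after signal space transformation and robust multi-array averaging (SST-RMA), with array medians between 4.30 and 4.75. One array stood apart. HT-29 without FA, replicate 3, had a median of 4.75, a spread over all clusters of 1.861 (SD) and a mean correlation of 0.951 with the other arrays of its line, against 4.30 to 4.40, 2.174 to 2.2 and 0.981 to 0.985 on the other HT-29 arrays. Of the 89 lincRNAs, 13 read at least 1 log2 unit lower on it than the mean of its 2 fellow replicates, and 0 read at least 1 unit higher. The gap was −2.73 for LINC01061 and −2.39 for LINC01000, and the median gap over the 89 loci was −0.1. Of the 10 loci with the highest mean 9 read lower on that array, while LINC00273 read 0.96 higher. Of the 30 loci with the lowest mean 18 read higher there. Such gaps were not counted over all clusters, so they are not shown to be particular to lincRNAs. Of the 10 colon epithelial markers listed, EPCAM (14.15 in HT-29 and 12.55 in SW480 without FA), KRT8 (16.97 in HT-29, 16.72 in SW480) and KRT18 (15.33 in HT-29, 15.6 in SW480) were high in both lines. KRT19 was higher in SW480 (10.95 in HT-29, 13.24 in SW480). CDH1 (12.61 in HT-29, 8.21 in SW480) and VIL1 (7.59 in HT-29, 5.56 in SW480) were lower in SW480. KRT20 (13.16 in HT-29, 3.78 in SW480), CEACAM5 (6.86 in HT-29, 3.96 in SW480) and LGALS4 (9.64 in HT-29, 3.97 in SW480) were in SW480 at the level of the fibroblast, leukocyte and endothelial markers measured, all at or below 5.04, as was CDX2 in HT-29 (4.49 in HT-29, 5.53 in SW480). SW480 in addition had the mesenchymal genes VIM (3.71 in HT-29, 9.14 in SW480) and ZEB1 (4.92 in HT-29, 7.74 in SW480). RNA came from whole cultures, in which fewer expressing cells and less RNA per cell cannot be told apart.

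**Figure D1:**
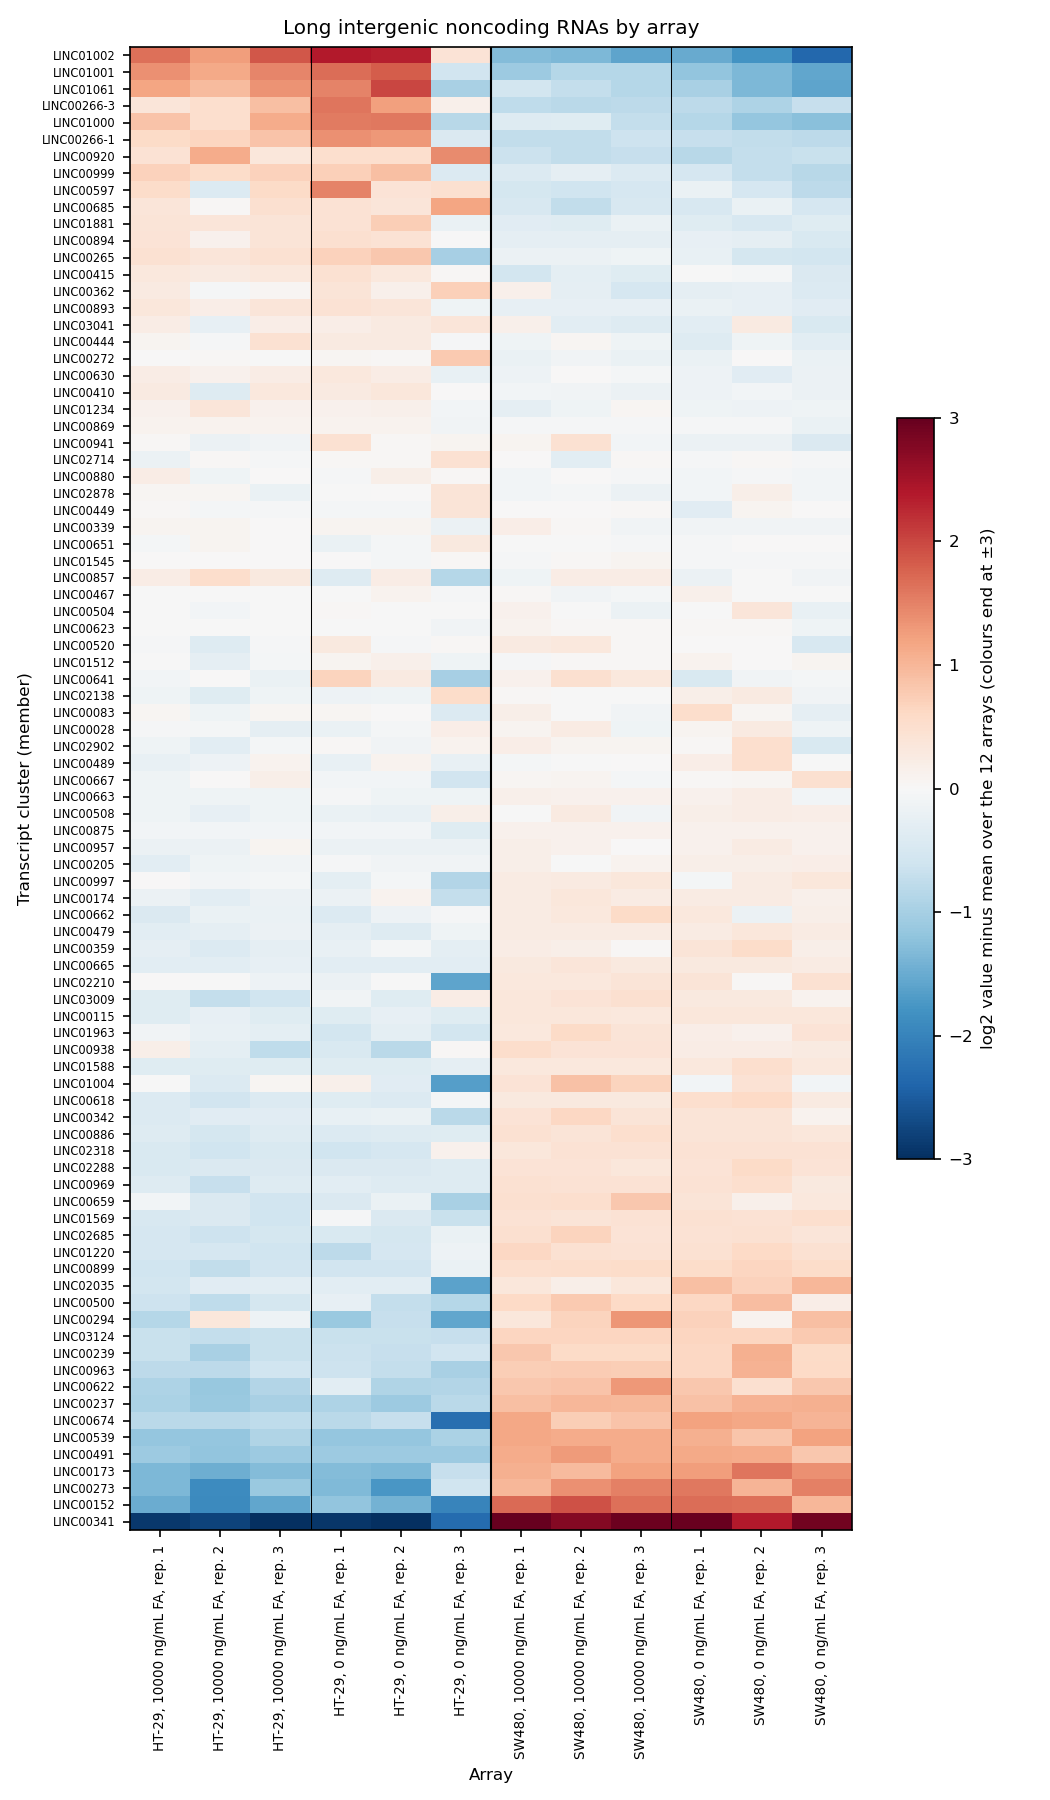
Log2 value of each of 88 lincRNA loci (rows; the locus on chromosome Y is left out) on each of the 12 arrays (columns), minus the mean of the locus over the 12 arrays, ordered by the mean difference between the lines. LINC01002 and its copies at the top are high in HT-29, LINC00341 and LINC00152 at the bottom are high in SW480, and HT-29 without FA replicate 3 is paler or darker than its fellows at many loci.

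The cell line was the main source of difference. Without FA, 55 of the 89 loci differed between HT-29 and SW480 at an adjusted p under 0.05 (limma, Benjamini-Hochberg over all clusters), 18 higher and 37 lower in HT-29. Among all clusters 42.7% were called (18.0% higher, 24.7% lower), and among the 24980 clusters with a mean of at least 5 the share was 57.2% (16.7% higher, 40.5% lower). The lincRNAs, with 61.8% called (20.2% higher, 41.6% lower), thus lay close to the shares at that mean. Those clusters share the minimum mean only and were not matched for brightness. With FA in both lines, on arrays not shared with the first comparison, 51 loci were called, 14 higher and 37 lower in HT-29, beside 41.1% of all clusters (15.1% higher, 26.0% lower) and 55.9% of those with a mean of at least 5 (16.4% higher, 39.5% lower). A further quantile normalization of the deposited values turned the split without FA to 30 higher and 32 lower, and with FA to 25 higher and 27 lower.

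Part of these counts follows from the level of 5 itself. Of the 89 loci 67 reached it in both lines, 20 in SW480 only and 2 in HT-29 only (LINC00597 and LINC00362), and a locus that passes through 1 line alone has to differ. Over the 67 loci, 35 were called without FA, 16 higher and 19 lower in HT-29, beside 53.5% of the 21442 clusters that reach the level in both lines (15.0% higher, 38.5% lower). With FA 33 of the 67 were called, 14 higher and 19 lower, beside 51.9% (15.0% higher, 37.0% lower). Of the 20 loci at the level in SW480 only, 18 were lower in HT-29 in each comparison. The LINC loci under the level were called less often, 137 of 453 without FA, which was not compared by a test.

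Both line comparisons called 46 loci, all 46 in the same direction, 13 higher and 33 lower in HT-29, beside 34.0% of all clusters and 48.5% of those with a mean of at least 5. In 45 of these the 3 HT-29 and 3 SW480 arrays did not overlap at either dose, beside 32.9% and 47.3%. Over the 89 loci the 2 differences correlated with Pearson's r of 0.975 and Spearman's rho of 0.948, which describes loci read in the same 2 lines and is no test. The difference was called and at least 2-fold at both doses in 22 loci, 14 lower and 8 higher in HT-29, beside 10.1% of all clusters and 21.6% of those with a mean of at least 5. The splits by direction follow in part from the level, since loci that reached it in SW480 only had to read lower in HT-29. Among the 14 these were LINC00341, LINC00173, LINC00539, LINC00491, LINC00237, LINC00622 and LINC00899. The 2 loci at the level in HT-29 only were not called with FA.

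**Figure D2:**
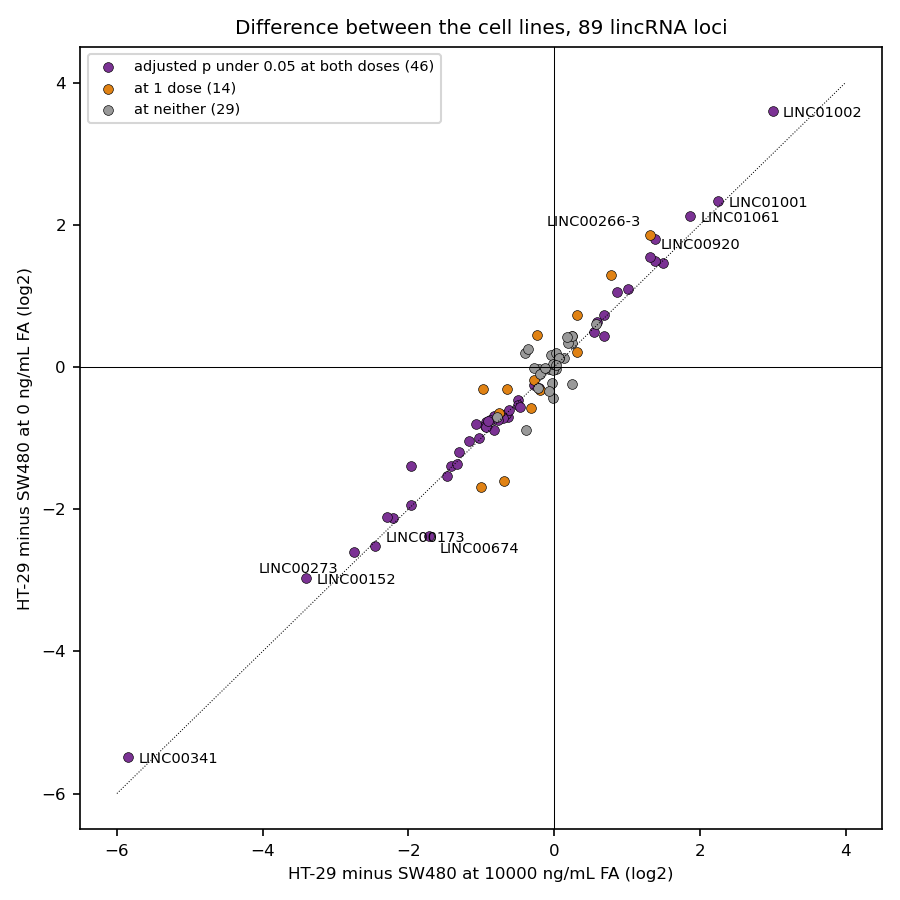
Difference in log2 value between HT-29 and SW480 for each of the 89 loci, with 10000 ng/mL FA (horizontal axis) and without FA (vertical axis), coloured by whether the adjusted p was under 0.05 at both doses (46), at 1 dose (14) or at neither (29). The points follow the dotted line of equal differences, from LINC00341 at the lower left to LINC01002 at the upper right.

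On the deposited log2 scale the difference was widest for LINC00341 on chromosome 14. It read 3.18, 3.28 and 2.96 with FA and 3.15, 3.07 and 3.75 without FA in HT-29, against 9.14, 8.83 and 9.0 with FA and 9.02, 8.45 and 8.95 without FA in SW480. All 6 HT-29 arrays lay below the array medians and all 6 SW480 arrays far above them. No detection call was used here, so the HT-29 values may be background and no fold is given. The difference was −5.48 ± 0.20 without FA and −5.85 ± 0.20 with FA (HT-29 minus SW480, log2 ± SE, adjusted p = 2.25e-08 and 1.44e-08). The separate cluster of its present host SYNE3 ran the same way, at 4.23 to 4.94 in HT-29 and 8.04 to 8.32 in SW480, so the entry cannot be taken as an RNA apart from the coding gene.

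LINC00152 (CYTOR, chromosome 2) is a mostly cytoplasmic lincRNA that has been described as raised in many carcinomas. Its values were 7.39, 6.98 and 7.33 with FA and 7.69, 7.46 and 6.90 without FA in HT-29, against 10.58, 10.79 and 10.53 with FA and 10.55, 10.53 and 9.89 without FA in SW480. The lines did not overlap, and HT-29 was lower by 7.85-fold without FA and 10.6-fold with FA (differences of −2.97 ± 0.23 and −3.40 ± 0.23, adjusted p = 4.44e-06 and 1.64e-06). A near-identical gene, MIR4435-2HG, lies elsewhere on the chromosome, and the cluster annotated to both genes read 8.59 to 9.35 in HT-29 and 11.95 to 13.07 in SW480. Which of the copies carried the signal cannot be told apart.

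LINC00273 on chromosome 16 gave 13.10, 12.56 and 13.32 with FA and 13.11, 12.68 and 13.85 without FA in HT-29, against 15.43, 15.82 and 15.95 with FA and 16.03, 15.45 and 15.95 without FA in SW480. HT-29 was 6.05-fold lower without FA and 6.68-fold lower with FA (adjusted p = 9.29e-05 and 6.31e-05). In the reference the locus lies beside RNA5-8SP2, a pseudogene of the 5.8S ribosomal RNA. The cluster of RNA5-8SP2 was also lower in HT-29, at 6.41 to 7.38 against 7.82 to 8.33 in SW480. Whether the LINC00273 cluster reads ribosomal RNA or other copies was not tested, so the folds may not be those of a lincRNA.

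LINC00173 on chromosome 12 read 4.28, 4.16 and 4.34 with FA and 4.34, 4.28 and 4.93 without FA in HT-29, against 6.71, 6.59 and 6.85 with FA and 6.88, 7.23 and 7.0 without FA in SW480. Here too no HT-29 array reached the lowest SW480 array, and the difference was −2.52 ± 0.17 without FA and −2.46 ± 0.17 with FA (adjusted p = 1.32e-06 and 1.54e-06). Its HT-29 values, like those of LINC00539, LINC00491 and LINC00622, lay near the array medians and may be background. These loci and LINC00237 reached the level of 5 in SW480 only. LINC00674 (−2.38 without FA, −1.72 with FA), LINC00539 (−2.12 and −2.21), LINC00491 (−2.11 and −2.29), LINC00237 (−1.94 and −1.97), LINC00963 (−1.53 and −1.47) and LINC00622 (−1.40 and −1.96) completed the 10 largest with HT-29 lower at both doses. For LINC00674 the low value on HT-29 without FA replicate 3 (6.12, beside 7.57 and 7.69) widened the difference, which was −1.88 without that array.

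Loci higher in HT-29 were led by the copies whose sequences are printed above. LINC01002 (chromosome 19) gave 12.83, 12.43 and 13.05 with FA and 13.55, 13.51 and 11.60 without FA in HT-29, against 9.87, 9.84 and 9.59 with FA and 9.66, 9.39 and 8.82 without FA in SW480. Even replicate 3 of HT-29 without FA, the lowest of its line, stayed above every SW480 array. HT-29 was higher by 3.60 ± 0.47 without FA and 3.0 ± 0.47 with FA (12.1-fold and 8.02-fold, adjusted p = 0.000166 and 0.000561).

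LINC01001 (chromosome 11) read 12.06, 11.83 and 12.15 with FA and 12.38, 12.52 and 10.11 without FA in HT-29, against 9.60, 9.84 and 9.84 with FA and 9.51, 9.35 and 9.14 without FA in SW480 (differences of 2.25 with FA and 2.34 without FA, adjusted p = 0.00606 and 0.00485). The remaining copy, LINC01061 (chromosome 4), was higher in HT-29 by 2.13 without FA and 1.87 with FA (adjusted p = 0.0188 and 0.0344). Its groups without FA overlapped, since the HT-29 replicate that stands apart read 8.91 and an SW480 array read 8.92. With that array left out, the difference without FA was 4.24 for LINC01002, 3.12 for LINC01001 and 3.04 for LINC01061.

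The septin pseudogenes LINC00266-3 (1.80 without FA, 1.38 with FA), LINC00266-1 (1.49 and 1.39) and LINC00266-4P (1.46 and 1.49) were higher in HT-29 as well, again as related copies. LINC00920 (chromosome 16) had 6.16, 6.83 and 6.05 with FA and 6.22, 6.22 and 7.13 without FA in HT-29, against 5.07, 4.98 and 5.02 with FA and 4.88, 5.01 and 5.06 without FA in SW480. Its difference was 1.54 ± 0.26 without FA and 1.32 ± 0.26 with FA (adjusted p = 0.000911 and 0.00235). LINC00999 (1.10 and 1.01), LINC00685 (1.06 and 0.86), LINC01881 (0.73 and 0.68), LINC00894 (0.63 and 0.59) and LINC00415 (0.44 and 0.69) were the other named loci higher in HT-29. LINC00685 lies in the region that the X and Y chromosomes share.

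Among the 10 brightest loci 3 were not called at both doses with all arrays, a count that rests on HT-29 without FA replicate 3. LINC01000 was higher in HT-29 by 1.86 without FA (adjusted p = 0.0196) and by 1.31 with FA (adjusted p = 0.0802). LINC00265 differed by 0.60 and 0.58 (adjusted p = 0.24 and 0.269), and LINC02210 by −0.89 and −0.39 (adjusted p = 0.0606 and 0.402). Without that array all 3 were called at both doses. LINC01000 then differed by 2.66 without FA and 1.31 with FA (adjusted p = 6.31e-06 and 0.000241), LINC00265 by 1.18 and 0.58 (adjusted p = 1.11e-05 and 0.000445), and LINC02210 by −0.39 at each dose (adjusted p = 0.0272 and 0.0153). The other entries that lie in coding genes differed little. LINC00444 was higher in HT-29 by 0.44 without FA (adjusted p = 0.0278) and differed by 0.24 with FA (adjusted p = 0.204), while the cluster of its host SUCLA2 ran the other way, at 7.63 to 7.77 in HT-29 and 8.60 to 8.65 in SW480 (adjusted p = 5.24e-07 without FA). LINC00083 differed by −0.22 and −0.03 and was called at neither dose.

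**Figure D3:**
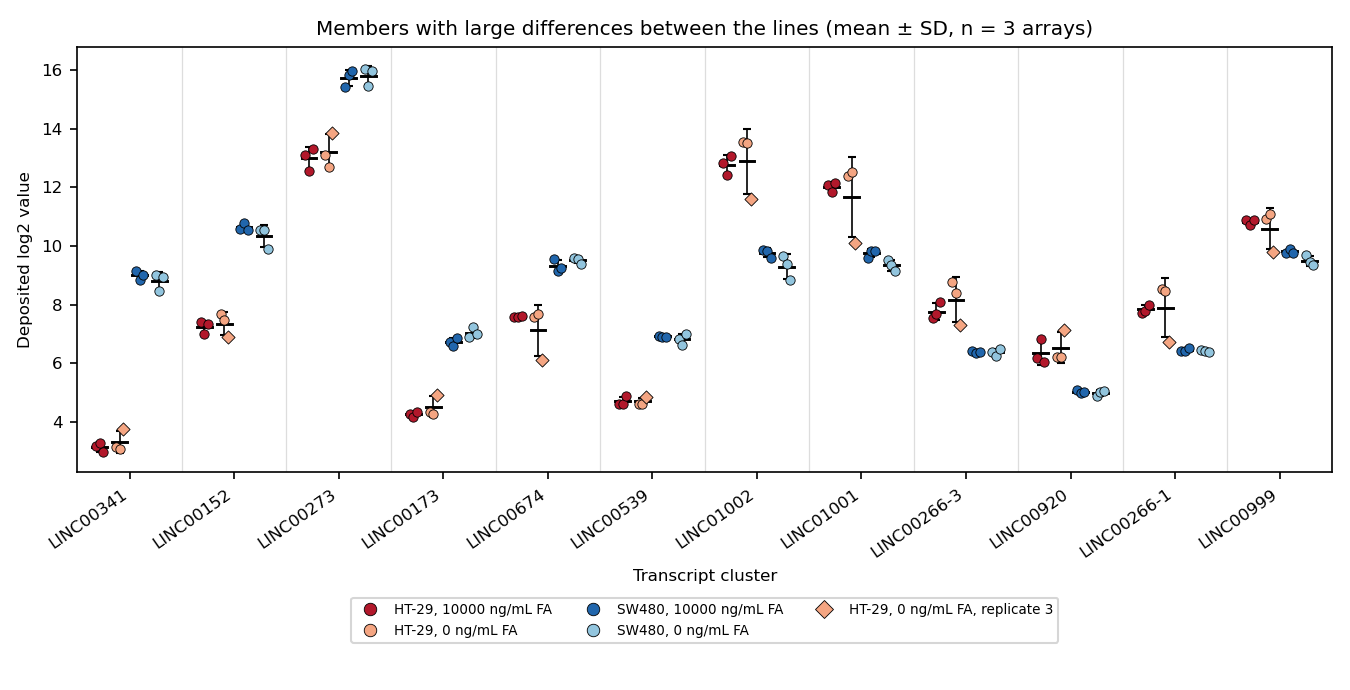
Deposited log2 values of 12 loci on each array (points), with the mean and SD of each group of 3 arrays, HT-29 in red and SW480 in blue, and a diamond for HT-29 without FA replicate 3. The 6 loci on the left are low in HT-29, LINC00341 the most, and the 6 on the right are high in HT-29, where the diamond lies below its fellow replicates for 5 of the 6.

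Position was compared with what lies nearby. Chromosome 14 carried 9 of the 89 loci, and 7 of them were lower in HT-29 at both doses: LINC00341, LINC00239, LINC01220, LINC02288, LINC02318, LINC00618 and LINC01588. LINC00341, LINC01220, LINC02318, LINC00618 and LINC02288 averaged 3.232, 4.575, 4.6, 4.673 and 4.922 in HT-29. They passed the level of 5 through SW480 alone and so had to read lower in HT-29. LINC00239 and LINC01588 reached it in both lines, as did LINC00641 and LINC00520, which were called at neither dose. This chromosome was picked after its values were seen. Over all 799 clusters of chromosome 14 with a mean of at least 5, 55.9% were lower in HT-29 without FA and 56.2% with FA, beside 40.5% and 39.5% on the whole array.

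Nearest protein coding genes were measured for 8 of the 10 loci with the largest differences on the lower side. Of their 16 neighbours 12 were lower in HT-29 without FA, 2 were higher and 2 were not called. KIZ, a centrosomal protein gene beside LINC00237, was lower by 4.74 (6.52 in HT-29, 11.26 in SW480). MED13L, a subunit gene of the Mediator kinase module beside LINC00173, differed by −3.38, and ZNF697, a zinc finger gene beside LINC00622, by −3.14. On either side of LINC00674 lay KPNA2 (importin alpha, −1.89) and AMZ2 (−2.67), and PAM, an enzyme that amidates peptides, beside LINC00491 differed by −2.53. CLMN, next to LINC00341, ran the other way at 0.96.

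For 8 loci higher in HT-29, 14 neighbours were measured. Of these 3 were higher in HT-29, 7 were lower and 4 were not called. GTPBP6 beside LINC00685 was higher by 0.66, while MAMLD1 beside LINC00894 differed by −2.09 and SHISA2 beside LINC00415 by −2.56. Among all clusters 18.0% were higher and 24.7% lower in HT-29, and among those with a mean of at least 5 the shares were 16.7% and 40.5%. One member hosts a microRNA in the reference: MIR570, in LINC00969, differed by −1.51 (7.16 in HT-29, 8.67 in SW480, adjusted p = 0.000667) and the host by −0.78.

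LINC loci with a described role were taken from lists of 29 names. A cluster with a single symbol was found for 16, and 8 of these reached the level. Without FA 4 of the 8 were lower in HT-29 and 0 were higher. Among all clusters 24.7% were lower and 18.0% higher, and among those with a mean of at least 5 the shares were 40.5% and 16.7%. With FA 5 were lower and 1 was higher, beside 26.0% and 15.1% of all clusters and 39.5% and 16.4% at that mean. LINC00899 and LINC00665 averaged 4.583 and 4.835 in HT-29. They passed the level through SW480 alone, so their direction was fixed. The HT-29 values of LINC00899 (4.39 to 4.93) may be background. LINC00899, which has been described in the control of mitosis, differed by −1.04 without FA and −1.17 with FA (adjusted p = 2.14e-05 and 8.80e-06). LINC00665, described in several carcinomas, differed by −0.60 and −0.62 (adjusted p = 6.65e-06 and 5.28e-06), with 4.82, 4.82 and 4.90 with FA and 4.82, 4.83 and 4.82 without FA in HT-29, against 5.44, 5.51 and 5.44 with FA and 5.44, 5.44 and 5.39 without FA in SW480. This was the tightest of the 89 loci, with a within-group SD of 0.034. Its values of 4.82 and 5.44 repeat exactly on several arrays, so the spread and the adjusted p may be too small. LINC00659 differed by −0.83 and −0.95 (adjusted p = 0.00811 and 0.00394). LINC00467, which encodes a small mitochondrial peptide, differed by −0.03 and 0.02 and was called at neither dose. LINC00662 was lower (−0.65, adjusted p = 0.00638) and LINC01234 higher (0.32, adjusted p = 0.0314) in HT-29 with FA only. The FA change in SW480 minus that in HT-29 was 0.34 for LINC00662 and −0.11 for LINC01234 and did not pass the test for either (adjusted p = 0.939 for both).

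Values repeated exactly on some arrays. In 16 of the 89 loci all 3 arrays of at least 1 group had the same value to 2 decimals. LINC00875, the present LINC01138, read 6.73 on 5 of the 6 HT-29 arrays, where replicate 3 without FA gave 6.46, and 6.94 on 5 of the 6 SW480 arrays. For such loci the spread between arrays is smaller than the array could show, and the median within-group SD over the 89 loci was 0.18 (range 0.034 to 0.82).

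FA moved no lincRNA past the adjusted threshold in HT-29. With 10000 ng/mL FA, 0 of the 89 loci had an adjusted p under 0.05 (0.0% of all clusters), and 4 had an unadjusted p under 0.05, beside 5.44% of all clusters. The study called a change at 1.5-fold or more with an unadjusted p no higher than 0.05. These criteria were met by 2 loci, both higher with FA, beside 1.36% of all clusters (0.58% higher, 0.78% lower) and 2.50% of those with a mean of at least 5 (1.49% higher, 1.01% lower). In 0 of the 89 loci did the 3 treated arrays lie apart from the 3 untreated ones, beside 5.25% of all clusters and 5.97% of those with a mean of at least 5. The median change over the 89 loci was −0.03, beside −0.08 over all clusters.

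Of the 2 loci LINC00294 read 5.26, 6.44 and 5.96 with FA, against 4.99, 5.41 and 4.54 without FA, a change of 0.91 ± 0.37 (limma, adjusted p = 0.587). LINC00857, described as raised in several carcinomas, read 5.97, 6.28 and 6.04 with FA, against 5.35, 5.97 and 4.88 without FA, a change of 0.70 ± 0.23 (limma, adjusted p = 0.587). In both the groups overlapped or touched, and the lowest untreated value came from the array that stands apart. Without that array the changes were 0.69 and 0.44 (limma, adjusted p = 1.0 for both), and neither locus met the criteria.

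Leaving that array out changed which loci met the criteria. They were 5 others, all 5 with lower values under FA: LINC01000, LINC01002, LINC01061, LINC00266-3 and LINC00266-1, beside 0.706% of all clusters (0.612% lower) and 1.45% of those with a mean of at least 5 (1.29% lower). Of the 89 loci 0 had an adjusted p under 0.05. LINC00266-1 read 7.71, 7.79 and 8.0 with FA, against 8.52 and 8.45 without FA on the remaining arrays, a change of −0.65 (limma, adjusted p = 0.393). LINC00266-3 changed by −0.83 (adjusted p = 0.696), LINC01002 by −0.76, LINC01000 by −0.75 and LINC01061 by −0.59. On the omitted array LINC00266-1 gave 6.72 and LINC01000 gave 12.06, so that with all arrays these loci changed by −0.06 and 0.04. All 5 loci are among the 13 that read at least 1 log2 unit lower on that array, and its part in the result was not tested. With it left out, 2 untreated HT-29 arrays remain.

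In SW480, FA moved 0 of the 89 loci past the adjusted threshold (0.00592% of all clusters, 0.00801% of those with a mean of at least 5), 1 had an unadjusted p under 0.05 (4.06% of all clusters), and 0 met the study's criteria (1.04% of all clusters, 2.29% of those with a mean of at least 5). The median change was 0.03, beside −0.02 over all clusters. The single locus was LINC00941, described in the spread of colorectal cancer cells. It read 7.29, 7.67 and 7.12 with FA, against 7.04, 7.04 and 6.77 without FA, a change of 0.41 ± 0.16 (limma, adjusted p = 1.0).

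The treated and untreated SW480 arrays did not overlap in 13 of the 89 loci, 11 higher and 2 lower with FA, beside 7.84% of all clusters (2.99% higher, 4.85% lower) and 10.3% of those with a mean of at least 5 (5.94% higher, 4.36% lower). The 11 included LINC01000 (12.49, 12.51 and 12.16 with FA, against 12.04, 11.72 and 11.63 without FA), LINC01061 (9.34, 9.17 and 9.04 with FA, against 8.92, 8.55 and 8.32 without FA), LINC01001, LINC00265 and LINC00999. Their changes of 0.59, 0.59, 0.43, 0.28 and 0.32 did not pass the test in the fit of all arrays. The 2 lower ones were LINC02035 (5.67, 5.49 and 5.67 with FA, against 6.22, 6.02 and 6.33 without FA, a change of −0.58) and LINC00173 (−0.32). Without the HT-29 array that stands apart, which enters the shared estimate of spread, LINC01000 and LINC01061 met the criteria (limma, adjusted p = 0.495 and 0.552), beside 1.35% of all clusters (0.502% higher) and 3.07% of those with a mean of at least 5 (1.2% higher). Again 0 of the 89 passed the adjusted threshold (0.0118% of all clusters).

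**Figure D4:**
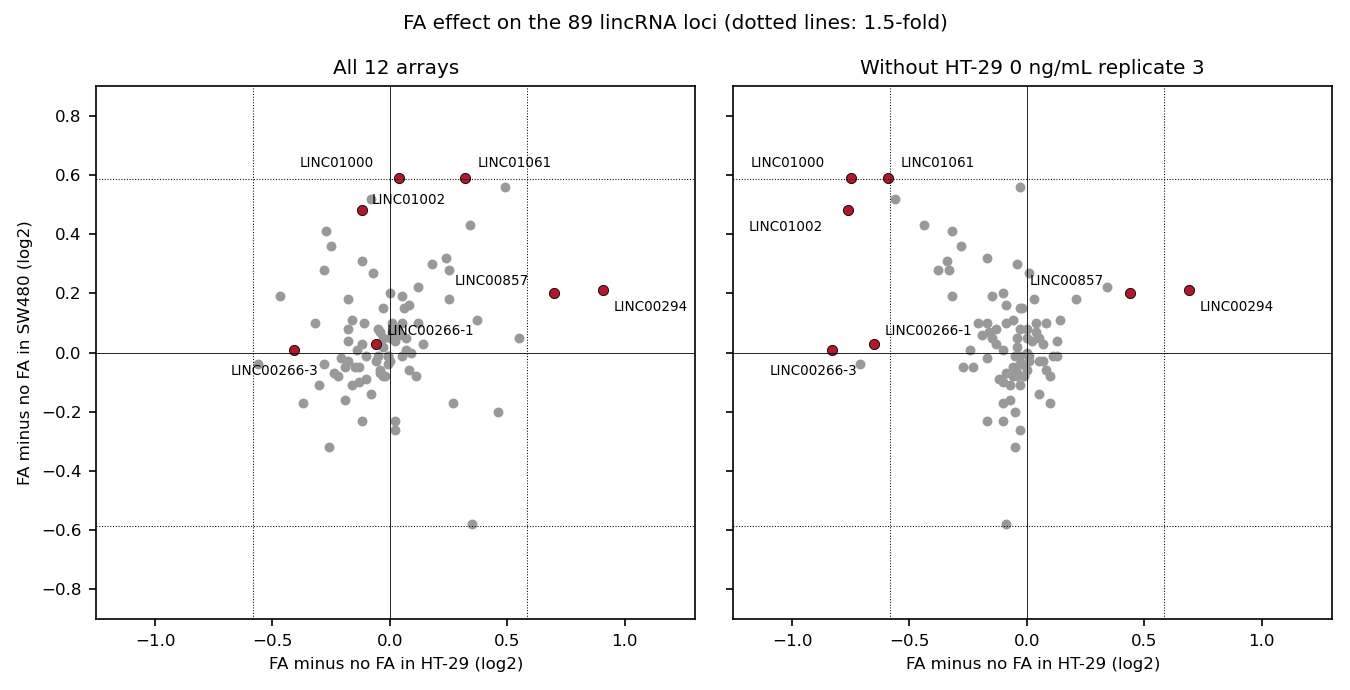
Change in log2 value with FA in HT-29 (horizontal axis) and in SW480 (vertical axis) for each of the 89 loci, with all 12 arrays (left) and without HT-29 without FA replicate 3 (right), with 7 named loci in red. LINC00294 and LINC00857 pass the dotted 1.5-fold line of HT-29 on the left, and LINC01000, LINC01002, LINC01061, LINC00266-3 and LINC00266-1 pass it on the opposite side on the right, where LINC00294 (0.69) is still beyond the line and LINC00857 (0.44) is not.

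The difference between the FA changes of the 2 lines was tested as well. With all arrays 0 of the 89 loci had an adjusted p under 0.05 (0.0% of all clusters), and 3 had an unadjusted p under 0.05 (3.29% of all clusters). The same criteria applied to this difference were met by 3 loci, all higher in SW480 than in HT-29, beside 1.53% of all clusters (0.889% higher) and 2.85% of those with a mean of at least 5 (1.47% higher): LINC00941 (0.68), LINC03009 (0.66) and LINC00520 (0.61), each with an adjusted p of 0.939 in limma. LINC03009 read 7.71, 7.78 and 7.85 with FA and 7.65, 7.65 and 7.48 without FA in SW480, and 7.01, 6.66 and 6.76 with FA and 7.26, 7.01 and 7.58 without FA in HT-29. The change was 0.19 in SW480 and −0.47 in HT-29, and neither passed the adjusted threshold. The highest untreated HT-29 value, 7.58, came from the array that stands apart. Without that array the HT-29 change was −0.32 and the difference 0.51, and LINC03009 no longer met the criteria.

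Without the array that stands apart, 11 loci met the same criteria, all 11 in the same direction, beside 2.23% of all clusters (1.59% higher) and 4.55% of those with a mean of at least 5 (3.56% higher), and again 0 passed the adjustment. Among the 11, LINC01000, LINC01002, LINC01001, LINC01061, LINC00265, LINC00641, LINC00266-3 and LINC00266-1 read at least 1 log2 unit lower on the omitted array. Its part in the result was not tested. Several of the 11 are related copies, so their shared direction does not come from independent loci. LINC01000 differed by 1.34 (limma, adjusted p = 0.634), LINC01002 by 1.24, LINC01061 by 1.17, LINC00641 by 1.09 and LINC01001 by 0.86 (adjusted p = 0.638 for both). LINC00641 (chromosome 14) read 7.88, 8.24 and 8.07 with FA and 7.30, 7.64 and 7.68 without FA in SW480, and 7.67, 7.75 and 7.56 with FA and 8.42, 8.03 and 6.76 without FA in HT-29. With all arrays its difference was 0.60 and that of LINC01000 was 0.55 (limma, adjusted p = 0.939 for both).

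**Figure D5:**
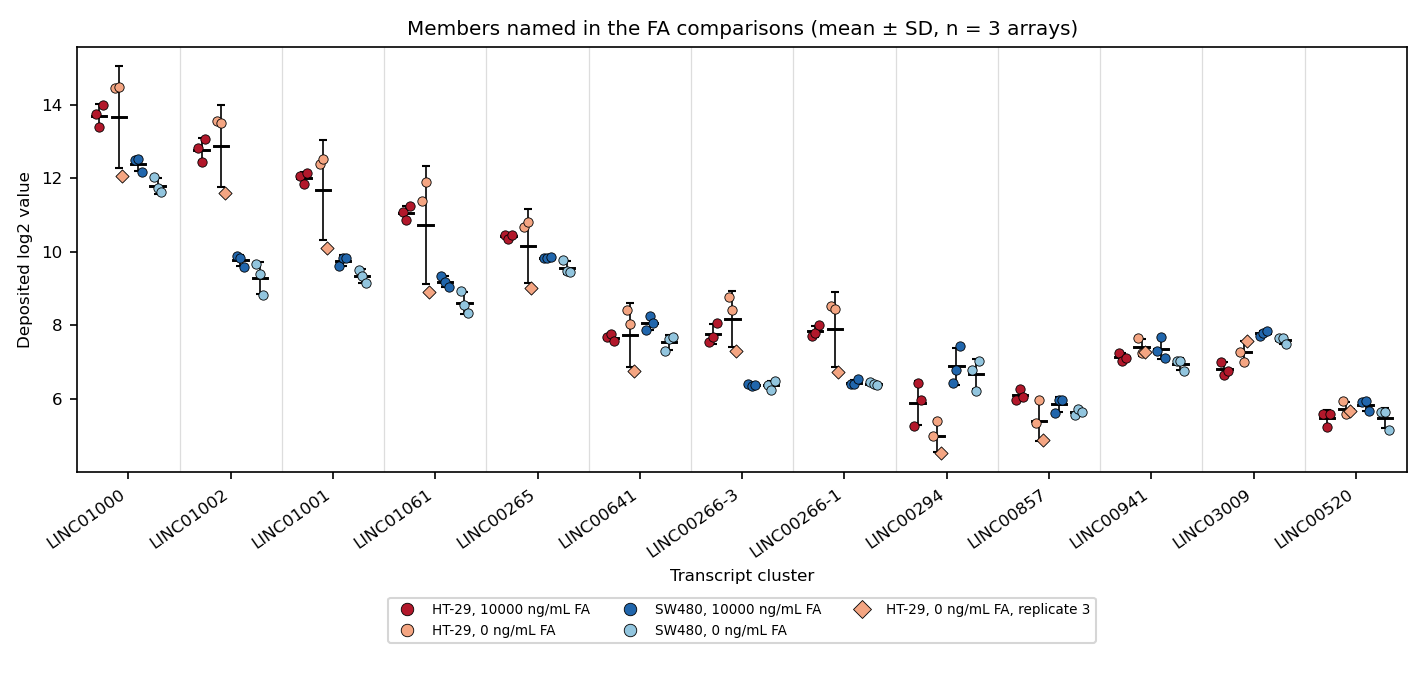
Deposited log2 values of 13 loci named in the FA comparisons on each array (points), with the mean and SD of each group of 3 arrays, and a diamond for HT-29 without FA replicate 3. In LINC01000, LINC01002, LINC01001, LINC01061 and LINC00265 the diamond lies 1.75 or more log2 units below its fellow replicates, while the treated arrays of HT-29 lie between them.

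The width of the intervals sets what can be said of the other loci. The 95% interval of the FA change lay within 1.5-fold either way for 54 of the 89 loci in HT-29 and for 61 in SW480. For the remaining loci the interval includes a change of 1.5-fold, and their values do not show that FA left them as they were. Where values repeat exactly on the arrays of a group, the interval may be too narrow. Intervals were not counted over all clusters. LINC00152, the best known of the loci that differ between the lines, changed by −0.12 ± 0.23 in HT-29 and 0.31 ± 0.23 in SW480 with FA.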

How the data were processed

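Total RNA of the 12 samples, selected by the study on RNA integrity, was labelled with the GeneChip WT PLUS kit and hybridised to HTA 2.0 arrays. The authors deposited log2 values made with SST-RMA, which corrects background, normalizes and summarises probes per transcript cluster, in Transcriptome Analysis Console 4.0; the labels name RMA. All 12 columns were used as deposited, with 0 per-sample columns left aside, 0 missing values and no further normalization. The study annotated symbols with Ensembl BioMart, which was not used here. The genome build of the clusters is not given in the sources used here. The number of arrays limits the precision.

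The means of the 4 groups were fitted to all 67528 clusters with limma 3.58.1 in R 4.3.3 (8 residual and 1.59 prior degrees of freedom, two-sided, Benjamini-Hochberg over all clusters). The study's fold and p limits were read from that fit too. The code was tested on simulated data. Replicate numbers did not pair the arrays, so no block was used. Alternatives were array weights, a variance trend, quantile normalization, median centring, filters, separate fits, each array left out and other minimum levels.

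Symbols came from the platform table (23781 clusters with 1 symbol, 22465 genes), and members were matched to RefSeq on GRCh38.p14 by Entrez number (59), symbol (17) or synonym (13). Named loci were the 10 largest per direction called at both doses without overlap, the 10 with the highest mean, those that met the study's criteria, those in coding genes, those next to the level, those on the role lists, and LINC00905 and LINC01783, which the paper names. Loci named outside this rule (LINC00641, LINC02035 and the chromosome 14 set) were chosen after their values were seen. The members and lists were chosen with earlier results of these data known. LINC01783 was not analysed here. Plots used matplotlib 3.10.9 (Python 3.11.15).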

Additional observations from a re-analysis of the deposited data

How the results depend on the processing

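The line counts of 55 (without FA) and 51 (with FA) became 133 of 285 and 129 with a minimum mean of 4 and 29 of 38 and 26 with a minimum mean of 6, as more or fewer loci were counted. With 1 array left out they ranged from 50 to 65 without FA and from 45 to 62 with FA. The replicate number as a block gave 53 and 48 calls, 0 in each FA comparison, and 2 (HT-29) and 0 (SW480) loci by the study's criteria, and moved none of these counts by over 1.5 times. Further quantile normalization moved the median line difference from −0.26 to −0.05 without FA and from −0.23 to 0.01 with FA, and median centring moved the median FA change in HT-29 from −0.03 to 0.12; the cause was not tested.

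No alternative brought a locus past the adjusted threshold for FA (0 to 0 with 1 array left out, in either line and in the difference). The 2 loci that met the study's criteria in HT-29, both higher with FA, gave way to 5 with array weights, all 5 lower with FA. Their number was 0 in a separate fit of the line, 4 and 1 with minimum means of 4 and 6, and 0 with a fold change of at least 2. They ranged from 0 to 5 with 1 array left out: 5, all lower with FA, without HT-29 without FA replicate 3, 4 without its replicate 2, 0 without HT-29 with FA replicate 2 and 1 without its replicate 3. In SW480 the count of 0 became 3 with array weights, 2 in a separate fit, and 0 to 2 with 1 array left out. Of the named line differences, LINC00266-1 with FA (adjusted p = 0.054 without HT-29 with FA replicate 3), LINC01881 and LINC00415 lost their call under some of the alternatives, and none changed direction.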

Other observations

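Below the level of 5, some LINC loci with a described role also differed between the lines, and the others on the lists are not described here. Among all LINC loci under the level 30.2% were called without FA and 31.1% with FA. LINC00261, an epithelial lincRNA beside the endoderm factor gene FOXA2, averaged 4.82 with FA and 4.71 without FA in HT-29, against 3.39 with FA and 3.48 without FA in SW480 (adjusted p = 1.34e-06 with FA, limma). LINC00511, described in several carcinomas, averaged 3.99 with FA and 4.16 without FA in HT-29, against 5.51 with FA and 5.46 without FA in SW480 (adjusted p = 7.25e-07 with FA, limma). LINC00668 differed by −0.76 without FA and −0.87 with FA. LINC00905 averaged 3.75 over all arrays, with FA changes of −0.20 in HT-29 and −0.02 in SW480 that did not pass the test. The paper lists this locus and LINC01783 among the genes that FA lowered most in HT-29. The HT-29 change of LINC00905 read here is under the study's limit of 1.5-fold and differs from that report. Only its brightest cluster with a single symbol was read here, and whether the paper used the same cluster is not known. Averages near or under the array medians lie near those of clusters without signal, which does not apply to LINC00511 in SW480.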
